A study of Macaca fascicularis with 6 samples.

Results

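SMPDL3A, CD5L, MERTK and TGM2 are targets of the liver X receptor (LXR) that have been described mainly in macrophages and that lie outside the core of lipid synthesis. They were read in liver of cynomolgus macaques (Macaca fascicularis) as every probe set of the array whose only annotated gene symbol was one of these 4 names. This gave 10 probe sets of the 54675 on the array: 4 of TGM2, 3 of MERTK, 2 of SMPDL3A and 1 of CD5L. All 4 symbols also occur in the macaque gene annotation, as do 78.6% of the 19775 human symbols with such probe sets. One group of 3 animals had received vehicle and the other group of 3 an LXR ligand, with 1 animal on each Affymetrix array. The ligand arrays carry the letters GW in their titles, and the compound, its dose, the length of treatment and the age of the animals are not given in the sources used here. The array carries human probes, so a difference in sequence between the species can lower a signal. Each sample is liver tissue of mixed cell types, in which more cells of a type and more RNA per cell cannot be told apart.

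LXR is a nuclear receptor for oxidised cholesterol that works as a partner of the retinoid X receptor. In macrophages it links the uptake of dying cells, which brings a load of cholesterol, to sterol efflux and to a quieter inflammatory state. SMPDL3A is a secreted phosphodiesterase related to acid sphingomyelinase that has been described as an enzyme breaking down the second messenger cGAMP. CD5L, also called AIM, is a secreted scavenger receptor cysteine-rich protein of tissue macrophages, including Kupffer cells, the macrophages of the liver. MERTK is a receptor tyrosine kinase through which phagocytes recognise dying cells, and TGM2 is a transglutaminase that cross-links proteins and takes part in engulfment.

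None of the 4 genes passed the test across all probe sets. TGM2 was the one gene of the 4 whose brightest probe set had all 3 ligand arrays above all 3 vehicle arrays, with a fitted signal 1.96-fold higher. MERTK went the other way on its brightest probe set, with overlapping groups, and the SMPDL3A and CD5L differences were smaller than their standard errors. Of the 10 probe sets, 6 were bright enough to be tested, meaning a mean signal over the 6 arrays of at least 129, the median of all probe sets. In limma's moderated test, 0 of these 6 passed at a Benjamini-Hochberg adjusted p under 0.05, as did 0 (0%) of all 27307 probe sets tested. At an unadjusted limma p under 0.05 there was 1 of the 6, against 1523 (5.58%) of all probe sets tested.

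**Figure D1:**
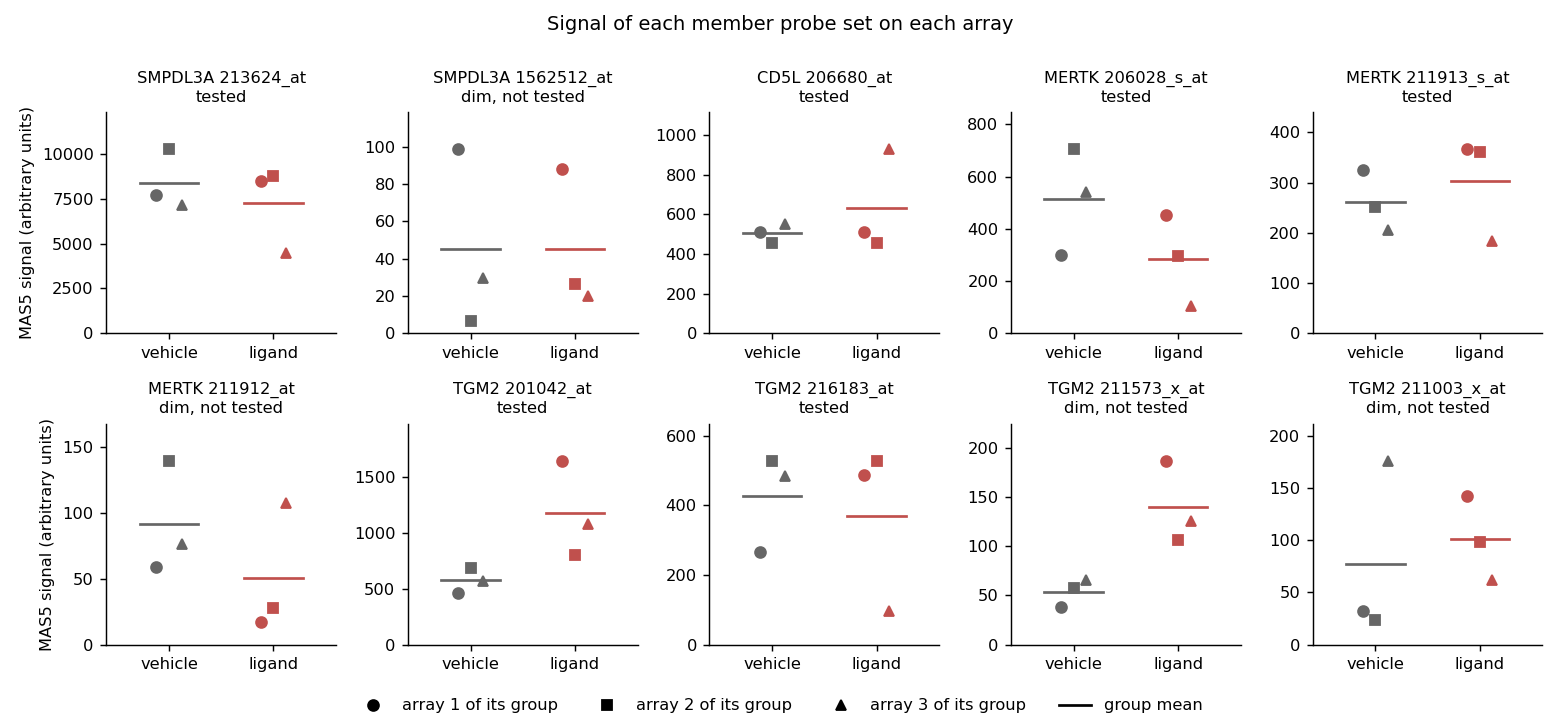
MAS5 signal in arbitrary units, on axes that start at 0, of each of the 10 probe sets on the 3 vehicle and 3 ligand arrays; points are arrays, with the marker giving the array's number in its group, and lines are group means. The groups are apart for TGM2 201042_at and 211573_x_at and overlap for the other 8 probe sets, and ligand array 3 is the lowest array for SMPDL3A 213624_at, MERTK 206028_s_at and TGM2 216183_at.

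On the TGM2 probe set 201042_at the vehicle arrays gave MAS5 signals, which are intensities in arbitrary units, of 464, 686 and 572 for arrays 1 to 3. The ligand arrays gave 1648, 803 and 1080. Ligand array 1 was thus the highest of all and ligand array 2 lay closest to the vehicle group, without overlap. The vehicle mean was 574 ± 111 and the ligand mean 1177 ± 431 (SD, n = 3 each). On log2(signal + 16), the scale of all differences and folds given here, the ligand arrays were higher by 0.97 ± 0.30 (SE), with a 95% interval of 0.30 to 1.64. The limma p was 0.00907 before adjustment and 0.829 after it, which placed TGM2 at rank 269 of 27307. A difference at least as high was seen on 3.19% of the probe sets tested, and 5.99% of them had all ligand arrays above all vehicle arrays.

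The other TGM2 probe sets did not all share this pattern. Probe set 211573_x_at, too dim to be tested, had signals of 38.5, 57.2 and 65.6 with vehicle and 188, 107 and 126 with the ligand. These groups were also apart, and the log2 difference of 1.15 in the fit without the filter had a 95% interval of -0.055 to 2.35. Probe set 211003_x_at, also dim, had overlapping groups, with 32.5, 23.6 and 176 against 142, 98.6 and 62.0. The tested probe set 216183_at gave 266, 528 and 485 with vehicle and 488, 527 and 94.9 with the ligand. Its lowest value by far was on ligand array 3, and its log2 difference of -0.45 ± 0.57 (SE) turned to 0.30 without that array. The suffix _x_at marks, in Affymetrix naming, a probe set that may also bind other transcripts. The mean over the 4 TGM2 probe sets gave a log2 difference of 0.58, against 0.97 on the brightest.

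MERTK was read by 3 probe sets that disagreed. On the brightest, 206028_s_at, the vehicle arrays gave 299, 704 and 539 and the ligand arrays 453, 296 and 104. Ligand array 3 was the lowest and vehicle array 2 the highest, while ligand arrays 1 and 2 lay within or just under the vehicle range. The means were 514 ± 204 and 285 ± 175 (SD, n = 3 each). The log2 difference was -0.95 ± 0.50 (SE), with a 95% interval of -2.07 to 0.17 and limma adjusted p = 0.881 (0.0886 before adjustment). Its residual SD of 0.84 on the log2 scale was larger than that of 86.4% of the tested probe sets. Without ligand array 3 the difference was -0.39, and without ligand array 1 it was -1.37.

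The second MERTK probe set, 211913_s_at, gave 324, 252 and 205 with vehicle and 367, 361 and 183 with the ligand. Here ligand arrays 1 and 2 were the highest of the 6 and ligand array 3 the lowest. The log2 difference was 0.17 ± 0.37 (SE). Leaving out ligand array 3 gave 0.48, and leaving out ligand array 1 gave 0.0079. The third, 211912_at, was too dim to be tested, with 58.9, 140 and 76.2 against 17.2, 27.7 and 107. The mean over all 3 probe sets gave a log2 difference of -0.55. The tested probe sets thus had opposite signs and gave no single direction for MERTK.

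SMPDL3A was bright on 213624_at, above 97.8% of probe sets or level with them by mean signal. Its signals were 7679, 10254 and 7138 in the vehicle group and 8464, 8790 and 4498 in the ligand group. Ligand arrays 1 and 2 lay inside the vehicle range and ligand array 3 below it. The means were 8357 ± 1665 and 7250 ± 2390 (SD, n = 3 each). The log2 difference was -0.25 ± 0.27 (SE), with limma adjusted p = 0.943 (0.381 before adjustment). The 95% interval of the difference ran from -0.85 to 0.35, or from a ratio of 0.554 to one of 1.28 between ligand and vehicle. Without ligand array 3 the log2 difference was 0.064, without vehicle array 2 it was -0.092, without ligand array 1 it was -0.39 and without ligand array 2 it was -0.42. The second SMPDL3A probe set, 1562512_at, was dim, at 98.5, 6.66 and 29.7 against 88.1, 26.6 and 20.0, and the mean of both gave -0.053.

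CD5L, on its only probe set 206680_at, was nearly flat across 5 of the 6 arrays. Its signals were 510, 457 and 551 with vehicle and 511, 457 and 929 with the ligand. Ligand array 3 alone lay above the rest, and ligand arrays 1 and 2 lay within the vehicle range. The means were 506 ± 47.5 and 632 ± 258 (SD, n = 3 each). The log2 difference was 0.25 ± 0.31 (SE), with limma adjusted p = 0.951 (0.440 before adjustment) and a 95% interval of -0.44 to 0.93. Without ligand array 3 the difference was -0.060 and without ligand array 2 it was 0.44.

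**Figure D2:**
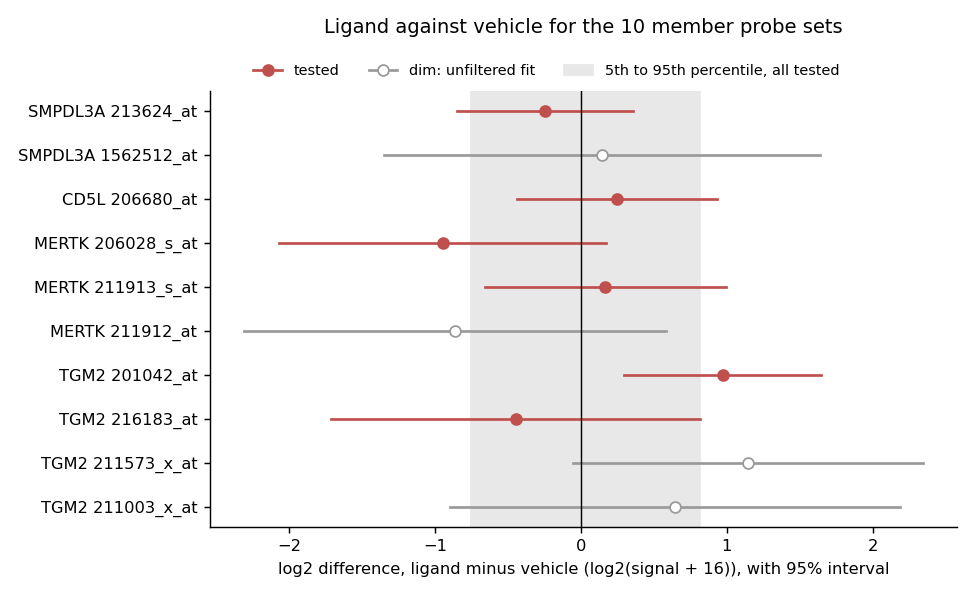
Log2 difference, ligand minus vehicle, of the 10 probe sets on the scale log2(signal + 16); points are limma estimates and bars their 95% intervals, filled for the 6 tested probe sets and open for the 4 dim ones, which were fitted without the filter. The grey band is the 5th to 95th percentile of all tested probe sets, -0.75 to 0.82; of the 10 intervals, that of TGM2 201042_at is the only one that does not reach 0.

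The arrays themselves differed in ways that touch these values. The 2% trimmed mean of the signals ran from 500.07 to 500.08 over the arrays, and their medians ran from 111 to 139. Ligand array 1 stood apart on the first principal component, which held 23.0% of the variance, at -89.9 against 0.77 to 36.7 for the other 5. Ligand array 3 had the highest log2 ratio of 3′ to 5′ actin control probe sets, a measure of RNA integrity and labelling, at 4.003 against 2.15 to 3.06 on the other 5 arrays. The same ratio for GAPDH was 2.05 on ligand array 3 and 0.99 to 1.70 on the others. Ligand array 3 is the array that set the sign of the SMPDL3A and CD5L differences, and the part of RNA quality in these results was not tested. The TGM2 difference on 201042_at was as large without that array, at 1.002, and was 0.70 without ligand array 1.

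MERTK belongs to a family of 3 receptors, with AXL and TYRO3. GAS6 bridges all of them to dying cells, and PROS1 acts on MERTK and TYRO3. AXL, on probe set 202686_s_at, gave 998, 512 and 1066 with vehicle and 1631, 2108 and 1906 with the ligand. All ligand arrays lay above all vehicle arrays, with a log2 difference of 1.18 ± 0.30 (SE), an unadjusted limma p of 0.00250 and an adjusted p of 0.689. Its other probe set, too dim to be tested, had a log2 difference of 0.60. TYRO3, on 211432_s_at, gave 401, 405 and 326 with vehicle and 239, 199 and 243 with the ligand. Here all ligand arrays lay below all vehicle arrays, with a log2 difference of -0.69 ± 0.30 (SE) and an adjusted limma p of 0.879, but the dim second probe set of TYRO3 had 0.69 and the mean of both was -0.0046. For comparison, 4.96% of all tested probe sets had all ligand arrays below all vehicle arrays.

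Neither ligand of these receptors differed beyond its error on its brightest probe set. GAS6 gave 1269, 1685 and 2243 with vehicle and 2748, 1451 and 1993 with the ligand, a log2 difference of 0.24 ± 0.29 (SE), which was 0.012 when ligand array 1 and 0.038 when vehicle array 1 was left out. A second GAS6 probe set had 1.19, also with overlapping groups, and the mean of both was 0.72. PROS1, which is also the anticoagulant protein S made by hepatocytes, had a log2 difference of 0.065 ± 0.22 (SE). ADAM17, the protease that sheds MERTK from the cell surface, had 0.053 on its brightest probe set, and its 3 tested probe sets ran from -0.12 to 0.097. MFGE8, another bridging protein for dying cells, had -0.26 ± 0.71 (SE), and -0.70 as the mean over its probe sets.

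**Figure D3:**
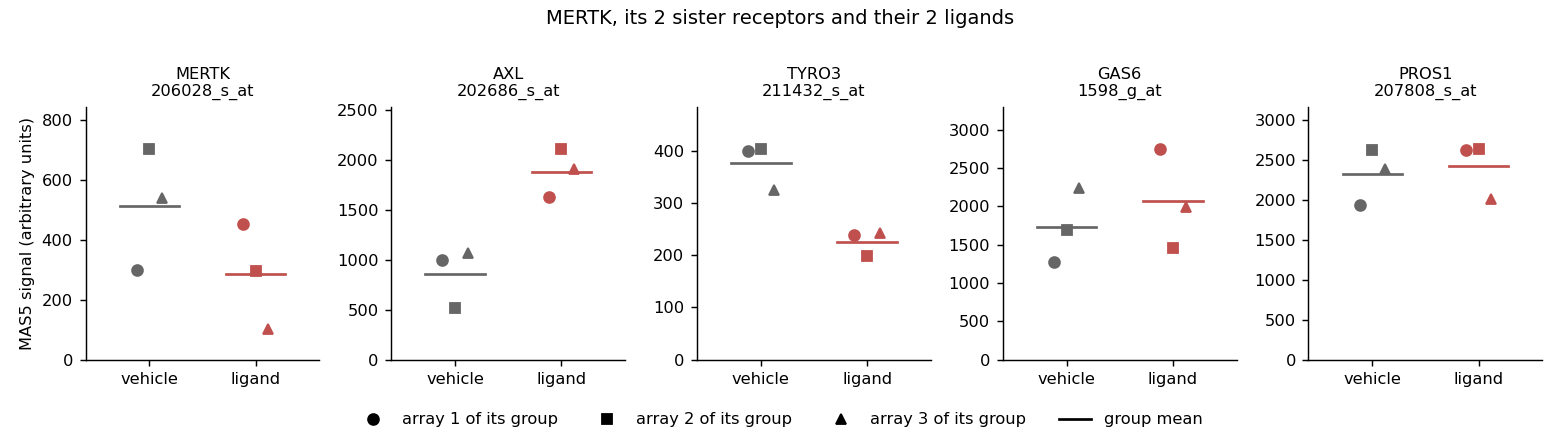
MAS5 signal in arbitrary units, on axes that start at 0, of the brightest probe set of MERTK, of its sister receptors AXL and TYRO3 and of the ligands GAS6 and PROS1; points are arrays, with the marker giving the array's number in its group, and lines are group means. AXL has all ligand arrays above and TYRO3 all ligand arrays below the vehicle arrays, while MERTK, GAS6 and PROS1 overlap.

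In the wider list of genes for the clearance of dying cells, 23 of 25 were measured, that is, had a probe set of their own among those tested. Of these, 17 were higher and 6 lower with the ligand, and 0 passed with p adjusted over all probe sets. Of the 23, AXL and TYRO3 alone had an unadjusted limma p under 0.05, against 5.58% of all probe sets tested. The median log2 difference of the list was 0.14, beside 0.0032 over all probe sets tested, of which 50.3% were higher. Without vehicle array 1 the list stood at 12 higher and 11 lower with a median of 0.012, and leaving out ligand array 1 gave a median of 0.020. CD36, a scavenger receptor for oxidised lipid and dying cells that also takes CD5L into cells, differed by 0.86 ± 0.42 (SE) on the log2 scale, and by 0.42 once ligand array 1 was left out. Of its 5 probe sets, one dim one was lower and the others were higher, and their mean was 0.36.

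SMPDL3A has relatives in SMPDL3B and in SMPD1, the lysosomal acid sphingomyelinase. SMPDL3B had a log2 difference of -0.27 ± 0.36 (SE) and SMPD1 of 0.20 ± 0.28 (SE), both with overlapping groups. In the list of sphingomyelin and ceramide breakdown, 9 of 17 genes were measured, with 7 higher, 2 lower, 0 passing and a median log2 difference of 0.20, which was 0.40 without vehicle array 1. Among its measured genes the smallest p belonged to ceramidases, the enzymes that split ceramide into sphingosine and a fatty acid. ACER3, the alkaline ceramidase, gave 765, 563 and 665 with vehicle and 1453, 1138 and 1212 with the ligand, a log2 difference of 0.92 ± 0.24 (SE) at an unadjusted limma p of 0.00282 and an adjusted p of 0.710. Both tested ACER3 probe sets had ligand arrays above all vehicle arrays, the second with a log2 difference of 1.01. ASAH1, the acid ceramidase of lysosomes, gave 618, 677 and 669 against 1080, 954 and 1054, a log2 difference of 0.64 ± 0.22 (SE) at an adjusted limma p of 0.829. Its other 2 tested probe sets had 0.44 and -0.67, and the mean over all its probe sets was 0.30. SMPD3, a sphingomyelinase too dim to be tested, gave 152, 221 and 260 with vehicle and 53.2, 19.5 and 19.8 with the ligand. In the fit without the filter its log2 difference was -2.32, at a limma p of 0.00179 before adjustment and 0.832 after it. Its second, dimmer probe set had -0.12, with overlapping groups. The other dim genes of the list, SPHK1 and ACER2, had 0.62 and 0.22.

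Because SMPDL3A has been described as an enzyme acting on cGAMP, the genes that make, sense, carry and break down this messenger were listed as well. Of the 9 genes 8 were measured, with 5 higher, 3 lower and 0 passing, and a median log2 difference of 0.18. CGAS, the DNA sensor that makes cGAMP, gave 146, 265 and 106 with vehicle and 495, 419 and 535 with the ligand on 242077_x_at. That is a log2 difference of 1.49 ± 0.37 (SE) at an adjusted limma p of 0.689, with groups apart, while its 2 dim probe sets had -0.53 and 0.018. LRRC8A, a subunit of the volume-regulated anion channel that lets cGAMP through, gave 6833, 6976 and 6556 with vehicle and 2439, 3780 and 3905 with the ligand. Its log2 difference was -1.04 ± 0.22 (SE) at an adjusted limma p of 0.456, but its second tested probe set had 0.83, with overlapping groups, and the mean of both was -0.10. SLC19A1, also listed as a carrier, went the other way, with the largest log2 difference of the list, 1.74 ± 0.60 (SE). Its limma p was 0.0152 before adjustment and 0.829 after it, with overlapping groups. Its other tested probe sets had 0.54 and 0.96, also with overlapping groups, and the mean over all its probe sets was 0.54. STING1, listed as a sensor, had 0.64 ± 0.40 (SE) and 0.999 on its second tested probe set, both with overlapping groups. ENPP1, a known hydrolase of cGAMP, had a log2 difference of 0.21 ± 0.18 (SE). Its relative ENPP3, also listed, had -0.31 ± 0.34 (SE) on its brightest probe set and 0.54 on its other tested one, both with overlapping groups.

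TGM2 could hardly be set beside its own family, since of 8 other transglutaminase genes listed only 2 were measured. These were F13A1, the A chain of clotting factor XIII, with a log2 difference of -0.34 ± 0.63 (SE), and TGM3 with -0.23 ± 0.45 (SE). TGM1 and 5 further members of the family were too dim to be tested. TGM2 is also a known target of the retinoic acid receptors, and 10 of 11 listed genes of the retinoic acid response were measured. They split into 5 higher and 5 lower with 0 passing and a median log2 difference of -0.011, which ran from -0.11 to 0.14 with arrays left out in turn. DHRS3, a retinaldehyde reductase that retinoic acid induces, had -0.026 ± 0.23 (SE). RARB, itself a retinoic acid target, had 0.36 ± 0.34 (SE), with 0.077 when vehicle array 2 was left out and 0.15 as the mean over its probe sets. RARG had -0.74 ± 0.25 (SE) at an adjusted limma p of 0.829 on its brightest probe set, 0.13 on its other tested one and 0.22 as the mean over all its probe sets. RARA had -0.065 on its brightest probe set, and its other tested probe sets ran in opposite directions, at -0.86 and 1.05.

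CD5L belongs to the scavenger receptor cysteine-rich family, in which 9 of 12 other listed genes were measured, 5 higher and 4 lower, with 0 passing. The family's median log2 difference was 0.14. That median was -0.083 when vehicle array 2 was left out and -0.050 when ligand array 3 was. The family's macrophage receptors had the smallest p values: MARCO had a log2 difference of 1.23 ± 0.22 (SE) and CD163 of 0.71 ± 0.23 (SE), each with ligand arrays above all vehicle arrays. The mean over the CD163 probe sets was 0.30. MSR1, a further scavenger receptor of macrophages, had 0.20 on its brightest probe set. JCHAIN, the chain that joins IgM, to which CD5L binds in blood, was too dim to be tested, and IGHM, the IgM heavy chain, had 0.21 ± 0.35 (SE). FASN, the fatty acid synthase that CD5L is known to inhibit, had 0.69 ± 0.26 (SE), while its other tested probe set had -0.22, with overlapping groups, and the mean of both was 0.23.

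Markers of macrophages were higher in the ligand group, and the 4 genes had unlike values beside them. Of 16 listed markers 12 were measured and all 12 were higher with the ligand on their brightest probe sets. Their median log2 difference was 0.64 and 0 passed. All ligand arrays lay above all vehicle arrays for 5 of them, against 5.99% of all probe sets tested. The smallest difference, 0.0045, was that of SLC40A1, an iron exporter. As the mean over all probe sets of a gene, SLC40A1 had -0.084, FOLR2 0.018, SIGLEC1 0.085, CD163 0.30 and MSR1 0.50. The remaining measured markers had 1 probe set each. Without vehicle array 2, 10 of the 12 were higher, and without ligand array 1 or ligand array 2, 11 were. The mean of their log2 values ran from 9.35 to 9.92 with vehicle and from 10.19 to 10.61 with the ligand, and their summed signal from 17320 to 22565 and from 25419 to 32794. TIMD4 and CLEC4F, also on the list, were too dim to be tested, at mean signals of 61.1 and 118 with vehicle and 40.8 and 40.2 with the ligand. Both had overlapping groups, and no direction was read from them. On ligand arrays 1 and 2 the marker mean was 0.80 and 0.90 above the vehicle mean, while CD5L stayed at its vehicle level there. Taken relative to the marker mean on each array, the log2 difference between ligand and vehicle was -0.98 for SMPDL3A, -0.48 for CD5L, -1.67 for MERTK and 0.24 for TGM2. On that scale SMPDL3A and MERTK 206028_s_at had all ligand arrays below all vehicle arrays, whereas CD5L and TGM2 overlapped. The marker mean itself was higher by 0.73 with the ligand, with groups apart. A probe set with the same signal on every array would therefore also have all ligand arrays below all vehicle arrays on that scale. The separation of SMPDL3A and MERTK there is thus no sign of a change in these genes. These relative values are a description without a test, and the part of cell composition in the TGM2 difference was not tested.

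**Figure D4:**
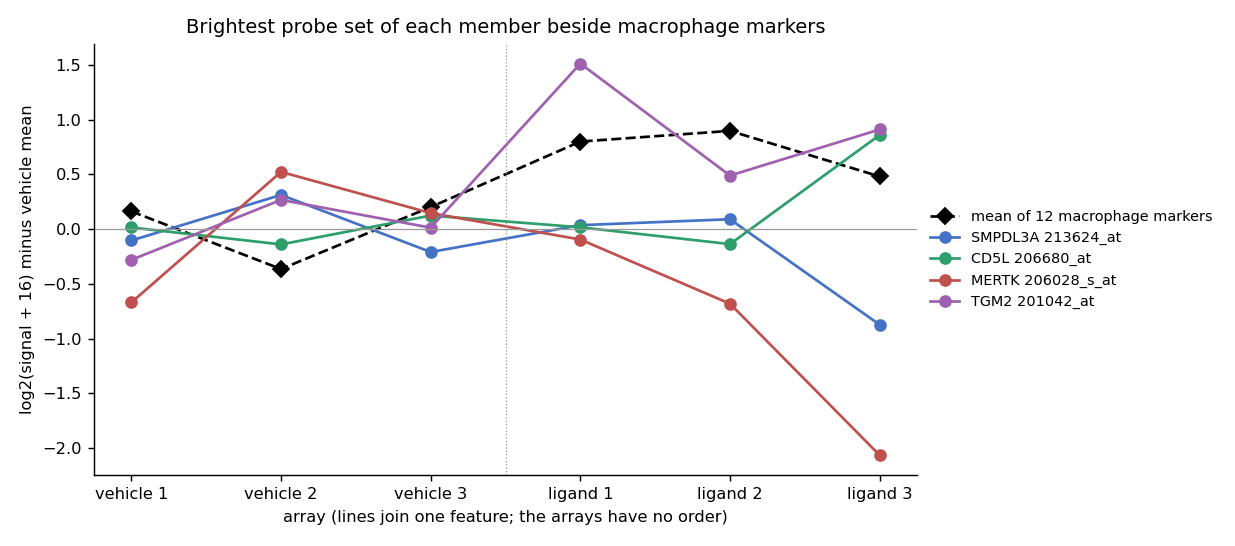
Values of log2(signal + 16) on each array, less the mean of the 3 vehicle arrays, for the brightest probe set of each of the 4 genes (lines with circles) and for the mean of 12 macrophage markers (dashed line with diamonds); the arrays have no order. The marker mean is higher on every ligand array, TGM2 is highest on ligand array 1, CD5L lies above its vehicle level on ligand array 3 alone, and MERTK and SMPDL3A are lowest on ligand array 3.

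Other cell types were measured by the same kind of list. Hepatocyte markers, such as albumin (ALB) with signals of 121612 to 156353, were bright on all arrays, as the tissue label has it, with 6 of 11 higher and a median log2 difference of 0.028. Endothelial markers, of interest because endothelium also makes TGM2, had 11 of 12 higher and a median of 0.48, or 0.27 without ligand array 3, and the one lower gene was VWF. VWF had the largest difference of that list, -3.39 ± 0.47 (SE), with all ligand arrays below all vehicle arrays, at an adjusted limma p of 0.318 and rank 2 by p among all probe sets tested. Its second, dim probe set had -0.15, with overlapping groups. Stellate cell and fibroblast markers had 7 of 10 higher and a median of 0.25, with 0.11 when ligand array 3 was left out. Among them COL3A1 had the smallest p, with 1.12 ± 0.29 (SE), groups apart and an adjusted limma p of 0.710. COL1A1 was lower on its brightest probe set, at -0.22, but its other tested ones had 1.64 and 1.72, and the mean over all was 0.91. By that mean LUM, RGS5 and ACTA2, higher on their brightest probe sets, had -0.056, -0.14 and -0.32. Markers of T, NK, B and plasma cells had 5 of 7 higher and a median of 0.21, which was 0.12 without vehicle array 1 and 0.14 without ligand array 1, and biliary markers had 2 of 4 higher and a median of 0.086, which was -0.38 without ligand array 3. Monocyte and neutrophil markers had 4 of 7 higher, with a median of 0.11, which was -0.14, -0.037 and -0.32 when vehicle array 1, vehicle array 2 and ligand array 1 in turn were left out. None of the markers in these lists passed the limma test across all probe sets.

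The LXR targets of sterol efflux and lipoproteins gave a frame for the 4 genes. Of 17 listed, 16 were measured, 15 higher and 1 lower. Their median log2 difference was 0.72, while 0 passed over all probe sets. At an unadjusted limma p under 0.05 there were 7, against 5.58% of all probe sets tested. Without ligand array 1, 13 were higher and 3 lower, with a median of 0.56. APOE had 0.75 with a signal of 128135 on ligand array 1 and 17365 to 22463 on the others, and its other probe sets had -0.22 and -0.063. LPL, at 0.64 on its brightest probe set, had -0.27 as the mean over its probe sets. This list overlaps with LXR genes already known to be higher in these samples and is not independent evidence of its direction. ABCG1, the sterol exporter, gave 297, 356 and 362 with vehicle and 940, 746 and 911 with the ligand, and ABCA1 gave 1152, 2272 and 1990 against 2567, 3356 and 3046. The log2 differences of ABCA1, ABCG1, MYLIP and SREBF1 were 0.77, 1.31, 1.36 and 2.57, each on the brightest probe set, and that of NR1H3, which encodes LXR alpha, was 0.11. Averaged over all probe sets of a gene they were 0.70, 0.82, 0.63 and 0.99, the second tested SREBF1 probe set stood at -0.60, and ABCA1 was 0.48 when vehicle array 1 was left out. On brightest probe sets TGM2, at 0.97, lay between the sterol exporters ABCA1 and ABCG1, but as the mean over all its probe sets, at 0.58, it lay below both.

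**Figure D5:**
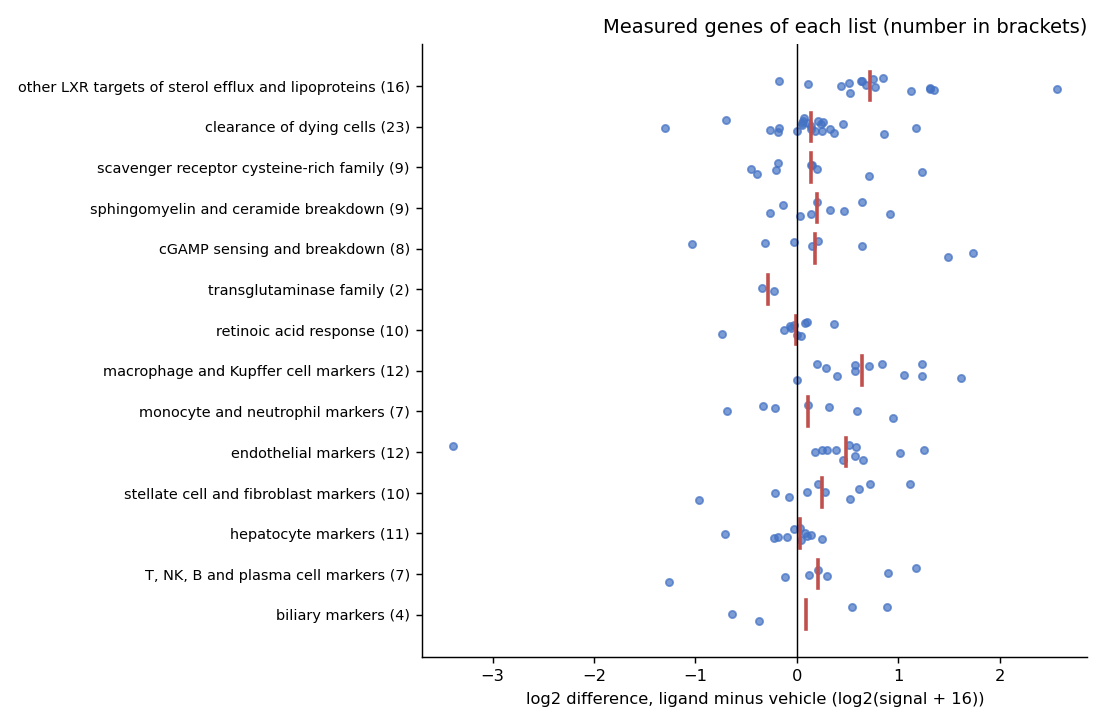
Log2 difference, ligand minus vehicle, on the scale log2(signal + 16), of each measured gene (points) in the 14 lists of pathways and cell types, with list medians as bars and the number of measured genes in brackets; vertical scatter within a row has no meaning. The medians are 0.72 for the other LXR targets and 0.64 for macrophage markers, and -0.28 to 0.48 for the remaining lists.

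The probe sets whose profile over the 6 arrays was most like that of each gene were found by the root mean square difference between profiles of log2(signal + 16), each centred on its own mean. For TGM2 201042_at these were NFIB, WDR41 and ANKRD16, at 0.13, 0.14 and 0.15, against a median of 0.70 over all tested probe sets with 1 symbol. For MERTK 206028_s_at they were LDB3, PWWP3A and HCP5B, at 0.14, 0.15 and 0.16 against a median of 0.91. For SMPDL3A 213624_at they were CRIPT, ARHGEF18 and RAB30, at 0.099, 0.11 and 0.11 against 0.54, and for CD5L SETD1B, RFLNB and CNOT4, at 0.079, 0.080 and 0.085 against 0.50. The genes nearest to SMPDL3A and to MERTK had their lowest value on ligand array 3, and those nearest to CD5L their highest value there. Among the 4 genes themselves the smallest such difference was 0.55, between SMPDL3A and MERTK, and the largest 1.13, between CD5L and MERTK.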

How the data were processed

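Total RNA of 6 livers was measured on Affymetrix arrays. The authors deposited intensity values that had not been logged. The submitters' processing notes name MAS5, while its version, scaling target and filters are not given in the sources used here. The scaling between arrays was kept and log2(signal + 16) was taken. The 62 control probe sets were left out. Probe sets with a mean signal at or above the median entered a linear model of group in limma 3.58.1 (R 4.3.3), with lmFit, eBayes and its trend option, no covariate and two-sided p adjusted over 27307 probe sets by Benjamini-Hochberg. The fit was tested on simulated data. Figures used Python 3.11.15 and matplotlib 3.10.9. The brightest probe set with 1 symbol stood for each gene.

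The members, the 14 lists and the naming rule were chosen with earlier results of these data known. Named were the 4 genes, fixed partners of each, up to 2 genes with the smallest p in a list and the 3 nearest profiles. The second probe sets of named genes were read after their values were seen, and SLC19A1 and STING1 were named after theirs were. The alternatives were a pseudocount of 1 or 64, quantile or median scaling, other filters and variance models, array weights, a replicate block, each array left out, a threshold of 0.10 and averaging all probe sets per gene. Same-numbered arrays deviated from their group means with correlations of 0.040, -0.031 and 0.069 over probe sets. For arrays with unlike numbers these ran from -0.076 to 0.034. The sample titles do not say whether the numbers pair the animals, and correlations from 3 arrays a group cannot settle it. Detection calls were not used, and the small number of arrays limits the precision.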

Additional observations from a re-analysis of the deposited data

How the results depend on the processing

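In no alternative did a probe set of the 4 genes pass, with limma adjusted p from 0.658 to 0.941 for TGM2 201042_at. TGM2 201042_at and MERTK 206028_s_at kept their direction in all 17 and 16 alternatives run for them. The other tested MERTK probe set, 211913_s_at, kept the opposite direction to 206028_s_at in all 15 run for it, from 0.0079 to 0.48. With arrays left out in turn, SMPDL3A 213624_at ran from -0.42 to 0.064 (log2 difference), CD5L from -0.060 to 0.44, MERTK 206028_s_at from -1.37 to -0.39, TGM2 201042_at from 0.70 to 1.21 and TGM2 216183_at from -0.85 to 0.30. The array that turned SMPDL3A, CD5L and TGM2 216183_at was ligand array 3. The number of probe sets called was 0 in all settings but those that left out an array, where it ran from 0 to 1: ACAA2 without vehicle array 2 and SREBF1 without ligand array 2, both named after their values were seen.

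Other genes changed sign with an array left out: PROS1 (-0.059 to 0.19), ADAM17 (-0.082 to 0.19), MFGE8 (-1.03 to 0.27), SMPD1 (-0.076 to 0.47), SMPDL3B (-0.60 to 0.011), MSR1 (-0.16 to 0.42), IGHM (-0.037 to 0.54), F13A1 (-0.72 to 0.34), TGM3 (-0.62 to 0.031), RARA (-0.18 to 0.036), DHRS3 (-0.22 to 0.097), NR1H3 (-0.044 to 0.31), CRIPT (-0.32 to 0.13), ARHGEF18 (-0.41 to 0.053), SETD1B (-0.13 to 0.42) and RFLNB (-0.10 to 0.39). The mean over a gene's probe sets turned IGHM (-0.038), RARA (0.18), RARG (0.22), CRIPT (0.14), RFLNB (-0.072) and CNOT4 (-0.11). The cause was not tested. The replicate block left the TGM2 201042_at difference at 0.97 with limma adjusted p = 0.736 and changed no call. Signal over background limits the 4 dim probe sets, for which no filtered test was made.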
